A study of Mus musculus with 7 samples.

Results

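The histone genes of the mouse retina were examined in a map of histone H3 lactylated at lysine 18 (H3K18La), as every peak annotated to a gene whose symbol began with Hist1h, Hist2h, Hist3h, Hist4h, H1f, H2ac, H2bc, H3c, H4c, H2az, H2af or H3f. This rule took 49 of the 108253 peaks, under 35 gene symbols. The clustered replication-dependent genes held 33 of these peaks under 26 symbols, of which 22 peaks lay at promoters. The variant genes held 16 peaks under 9 symbols, of which 5 lay at promoters. CUT&Tag, in which an antibody brings a cutting enzyme to the mark so that the DNA beside it is sequenced, was performed on papain-dissociated whole retinas of C57Bl/6J mice at postnatal days 4 (P4), 10 (P10) and 28 (P28). P4 and P10 were each measured in 2 libraries and P28 in 3, with no other treatment or genotype. P28 replicate 1 was the only library of the second batch given in the labels. The labels do not say whether replicates came from separate animals, so the p-values below measure only the spread between these libraries. In whole retina, a change in the number of cells that carry the mark and a change in the mark per cell cannot be told apart.

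Histones are the proteins around which DNA is wound: H2A, H2B, H3 and H4 form the core of the nucleosome, and H1 binds the linker between nucleosomes. Replication-dependent histone genes lie in clusters, lack introns as a rule, are transcribed mainly in S phase and make mRNAs that end in a conserved stem-loop in place of a poly(A) tail. Variant genes, such as those of H3.3, H2A.Z and H1.0, lie apart, make polyadenylated mRNAs throughout the cell cycle, and supply histones to cells that no longer divide, which is the state of retinal neurons once they are born.

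The signal is given as RPKM, the reads in a peak scaled by the length of the peak and by a normalised library size. Depth ranged from 199970 to 8274373 reads in peaks per library, and a count of 3 reads in a peak of median width (757 bases) corresponded to 1.80 and 2.36 RPKM at P4, to 7.15 and 3.12 RPKM at P10, and to between 0.244 and 1.04 RPKM at P28. An age with at most 3 reads in each of its libraries is called at the floor here. By that measure 27 of the 33 replication-dependent peaks were at the floor at P4, 24 at P10 and 0 at P28, and 8, 7 and 1 of the 16 variant peaks. Most single histone peaks at P4 and P10, 35 and 31 of the 49, were thus measured from at most 3 reads a library. The peaks were consensus peaks merged over the ages, so a peak could enter through the deeper P28 libraries alone. Few reads at P4 or P10, and rises from them, are then partly set by how peaks were chosen. All peaks set beside the histone peaks below were chosen in the same way, and their share at the floor was not taken. Rod markers, a check of the tissue, had promoter peaks at 8 of 9 genes, and their summed signal was 21.1 and 26.6 RPKM at P4, 193 and 197 RPKM at P10 and 161 to 225 RPKM at P28. Microglia markers had a promoter peak at 0 of 4 genes, endothelial markers at 3 of 4 and pigment epithelium markers at 2 of 6. The summed endothelial signal was 6.86 to 9.77 RPKM at P4, 5.81 to 9.07 RPKM at P10 and 3.70 to 5.91 RPKM at P28, and that of pigment epithelium 4.07 to 5.74, 12.2 to 17.4 and 10.6 to 14 RPKM. Of these, Rgr was called higher from P4 to P10, and the part of these cells in the histone results was not tested.

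The promoters of the 2 classes differ in sequence, and 5 are shown because their peaks carry the comparisons below. They are RefSeq windows (GRCm38.p6) from 250 bases before to 50 bases after a transcription start, and capitals mark exact matches on either strand to ATTTGCAT (the octamer), to the CCAAT box, to the TATA sequence TATAAA and to the H1 promoter sequence AAACACA. No matches overlapped in these windows. The H2bc8 window (chr13:23571150-23571449, plus strand) also holds the start region of the divergent gene H2ac8. The H4c3 window is chr13:23698409-23698708 (minus strand) and the H1f2 window chr13:23738557-23738856 (plus strand). The variant windows are H3f3a at chr1:180813556-180813855 and H3f3b at chr11:116024455-116024754, both on the minus strand.
H2bc8: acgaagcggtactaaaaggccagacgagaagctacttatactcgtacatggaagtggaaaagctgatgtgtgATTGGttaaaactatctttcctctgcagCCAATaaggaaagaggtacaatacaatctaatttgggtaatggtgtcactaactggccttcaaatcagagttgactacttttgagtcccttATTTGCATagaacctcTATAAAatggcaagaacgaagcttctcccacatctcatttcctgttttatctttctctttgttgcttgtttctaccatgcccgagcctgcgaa
H4c3: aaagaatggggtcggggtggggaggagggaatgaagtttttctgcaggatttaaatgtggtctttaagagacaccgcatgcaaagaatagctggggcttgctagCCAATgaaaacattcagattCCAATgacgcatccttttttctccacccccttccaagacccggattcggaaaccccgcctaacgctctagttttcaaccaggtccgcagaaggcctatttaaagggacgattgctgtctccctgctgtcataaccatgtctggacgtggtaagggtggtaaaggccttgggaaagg
H1f2: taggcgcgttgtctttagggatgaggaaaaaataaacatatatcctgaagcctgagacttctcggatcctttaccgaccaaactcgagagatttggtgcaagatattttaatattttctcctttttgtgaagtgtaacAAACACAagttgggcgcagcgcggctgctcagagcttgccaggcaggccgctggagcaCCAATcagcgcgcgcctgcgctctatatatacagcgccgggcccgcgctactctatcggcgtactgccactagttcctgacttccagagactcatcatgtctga
H3f3a: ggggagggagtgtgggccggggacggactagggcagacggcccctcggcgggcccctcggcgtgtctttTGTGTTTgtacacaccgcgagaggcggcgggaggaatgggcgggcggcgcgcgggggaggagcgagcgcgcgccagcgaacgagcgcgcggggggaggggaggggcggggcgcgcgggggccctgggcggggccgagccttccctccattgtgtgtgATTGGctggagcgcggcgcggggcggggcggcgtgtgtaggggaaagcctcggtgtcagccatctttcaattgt
H3f3b: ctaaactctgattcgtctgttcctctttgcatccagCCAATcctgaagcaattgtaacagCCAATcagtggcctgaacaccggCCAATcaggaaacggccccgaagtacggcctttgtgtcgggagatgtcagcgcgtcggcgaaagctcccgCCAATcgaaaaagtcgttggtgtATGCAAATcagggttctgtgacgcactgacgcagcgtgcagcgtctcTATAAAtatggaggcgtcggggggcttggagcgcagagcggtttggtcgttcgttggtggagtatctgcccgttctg

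In H2bc8 the octamer stood just upstream of TATAAA, with a CCAAT match on each strand further up. H1f2 held AAACACA and 1 CCAAT, H4c3 held 2 CCAAT, and H3f3a, at 74.0% G and C, held 1 match each to CCAAT and AAACACA. H3f3b held 4 CCAAT matches, 1 octamer and 1 TATAAA. Promoter windows were found for 58 of 63 replication-dependent genes and for 10 of 10 variant genes. CCAAT was present in 86.2% of the replication-dependent windows, 60.0% of the variant windows and 37.9% of all 27025 promoter windows. TATAAA was present in 58.6% of the replication-dependent windows, in 2 of the 10 variant windows and in 14.2% of all windows. The octamer was present in 20.7% of the replication-dependent windows and 1.75% of all windows, and within the replication-dependent class it was found at H2A (35.3%) and H2B genes (42.9%), with no exact match at H1, H3 or H4 genes. AAACACA was present at 83.3% of the 6 replication-dependent H1 genes and 7.14% of all windows. CCAAT was found in 27.3% of the H4 windows and in every H1, H2A, H2B and H3 window. TATAAA was found in 72.7% of the H4 windows, 66.7% of the H1 windows, 64.7% of the H2A windows and 4 of 10 H3 windows. GGGCGG was found in 72.7% of the H4 windows, 66.7% of the H1 windows and 35.9% of all windows. A match describes the letters of a window and is not a binding site.

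The stem-loop that ends replication-dependent mRNAs separates the classes by sequence. The pattern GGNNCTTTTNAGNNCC was searched from the gene start to 200 bases past the transcript end. It was found at 59 of 63 replication-dependent genes and 1 of 10 variant genes (H3f4, placed in that class by its symbol alone). Not every match lay at the annotated end, since that of H3c6 lies well inside its transcript. Among the replication-dependent genes it took 6 forms, of which the most frequent was present in 38 genes. A gene of each of 4 families shows the common forms as DNA on the coding strand, with the paired stem in capitals and the loop in lower case.
H1f2: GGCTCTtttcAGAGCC
H2bc8: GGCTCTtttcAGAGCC
H3c6: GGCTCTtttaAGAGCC
H4c3: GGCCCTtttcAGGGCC

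The genomic positions are chr13:23739512-23739527 for H1f2, chr13:23571843-23571858 for H2bc8, chr13:23561903-23561918 for H3c6 and chr13:23698089-23698104 for H4c3.

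To see which histone genes carried the mark, the starts of the annotated genes were placed on the peaks. Of 63 protein-coding replication-dependent genes, 28 had their start in a peak, and all of these lay on chromosome 13, where 53 of the genes are. None of the 10 genes of the chromosome 3 cluster (chr3:96219885-96270192) had a peak, nor did an 80.1 kb stretch of the chromosome 13 cluster with 11 genes (chr13:21753377-21833475). The families differed in this respect: the start was in a peak for 9 of 12 H4 genes, 8 of 16 H2B genes, 3 of 6 H1 genes, 6 of 17 H2A genes and 2 of 12 H3 genes. Many H2A and H2B genes lie head to head and shared 1 peak, as for H2ac8 and H2bc8, whose starts are 180 bases apart, and for H2ac11 and H2bc11, 249 bases apart. Such a peak belongs to both genes although the deposited annotation names only one of them. Among 10 variant genes the start was in a peak at H3f3a, H3f3b, H2az1, H2az2 and H1f0, and in none at H1f7, H1f8, H1f10, H3f3c and H3f4.

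Near-identical copies differed between the families as well. Within 500 bases of the start, the share of bases with a copy elsewhere in the genome (at least 98% identity over at least 100 bases) was 0% at all 9 H4 genes with a peak, and 100% at H4c17 and H4c18, which had none. It was between 39.1% and 67.9% at the 6 H2A genes with a peak. Over all replication-dependent genes the median was 22.2% at the 28 starts in a peak and 41.1% at the 35 starts in no peak, and all 7 genes at 100% lacked a peak. Within families the order was not the same: the median was 63.1% with a peak and 40.3% without at H2A genes, and 34.1% and 24.7% at H2B genes. Copies were not present at every gene without a peak, since 11 of those 35 were at 0%, including H1f4, H1f5 and H1f6. How reads that map to several places were handled is not given in the sources used here, so an absent peak at a copied gene cannot be read as an absent mark, and the part of the copies in these counts was not tested.

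**Figure D1:**
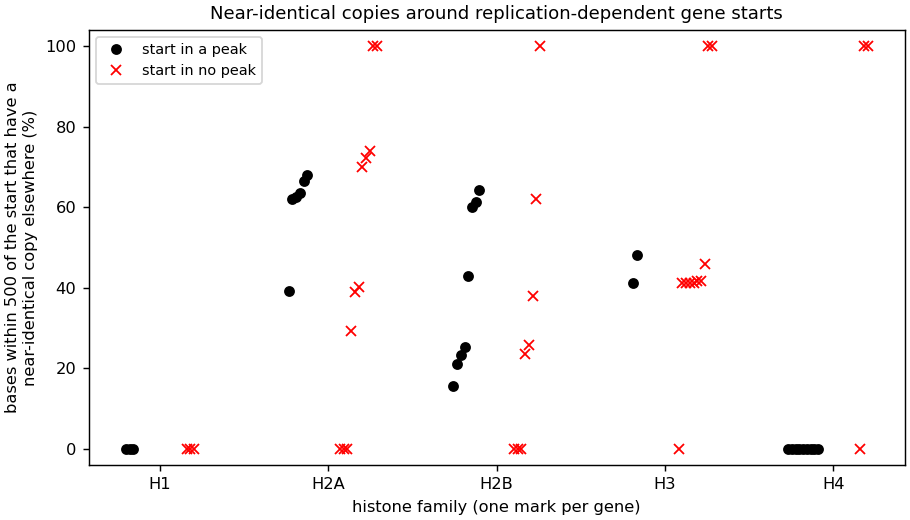
Percent of bases within 500 of the start that have a near-identical copy elsewhere (vertical axis) for 63 replication-dependent genes by family (horizontal axis). Black points are genes whose start lay in a peak and red crosses genes whose start lay in none; the 9 H4 genes with a peak are at 0% and all 7 genes at 100% are crosses.

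Among replication-dependent promoters, 9 of 22 peaks had more H3K18La at P28 than at P4 by the test used, and 13 did not pass it. Between P4 and P28 the change in log2(RPKM + 1) was above 0 at 22 of 22 promoter peaks, from 0.65 to 3.16, with a median of 1.78, against a median of 1.26 over all 17144 promoter peaks. Most promoter peaks rose, since the change over all of them crossed 0 between the 14.0th and 14.5th percentiles. With the 1 peak that had no P4 read set to 3 reads per library, the median was 1.72. In a limma fit over all 108253 peaks (Benjamini-Hochberg adjusted p under 0.01), 9 of the 22 were called higher and 0 lower, where 31.3% of all promoter peaks were called higher and 0.834% lower. Outside promoters 4 of 11 were called higher, which made 13 of 33 in all, where 18.9% of all peaks were called higher and 4.21% lower. Every P28 library lay above every P4 library at 20 of 22 promoter peaks, which was so for 73.8% of all promoter peaks, and at 29 of all 33 peaks, which was so for 50.6% of all peaks.

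The count of 13 depended on single libraries: it was 3 without P4 replicate 1, 3 without P4 replicate 2, 23 without either P10 library, 7 without P28 replicate 1 (batch 1 alone), 6 without P28 replicate 2 and 5 without P28 replicate 3. The share of all peaks called higher in those fits was 5.21% and 5.86% without P4 replicates 1 and 2, 32.1% without either P10 library, and 11.5%, 8.32% and 8.45% without P28 replicates 1, 2 and 3. With libraries scaled to their reads in peaks, 5 were called higher, where 7.30% of all peaks were called higher and 15.6% lower, and the median was 1.06 against 0.22 over all promoter peaks.

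**Figure D2:**
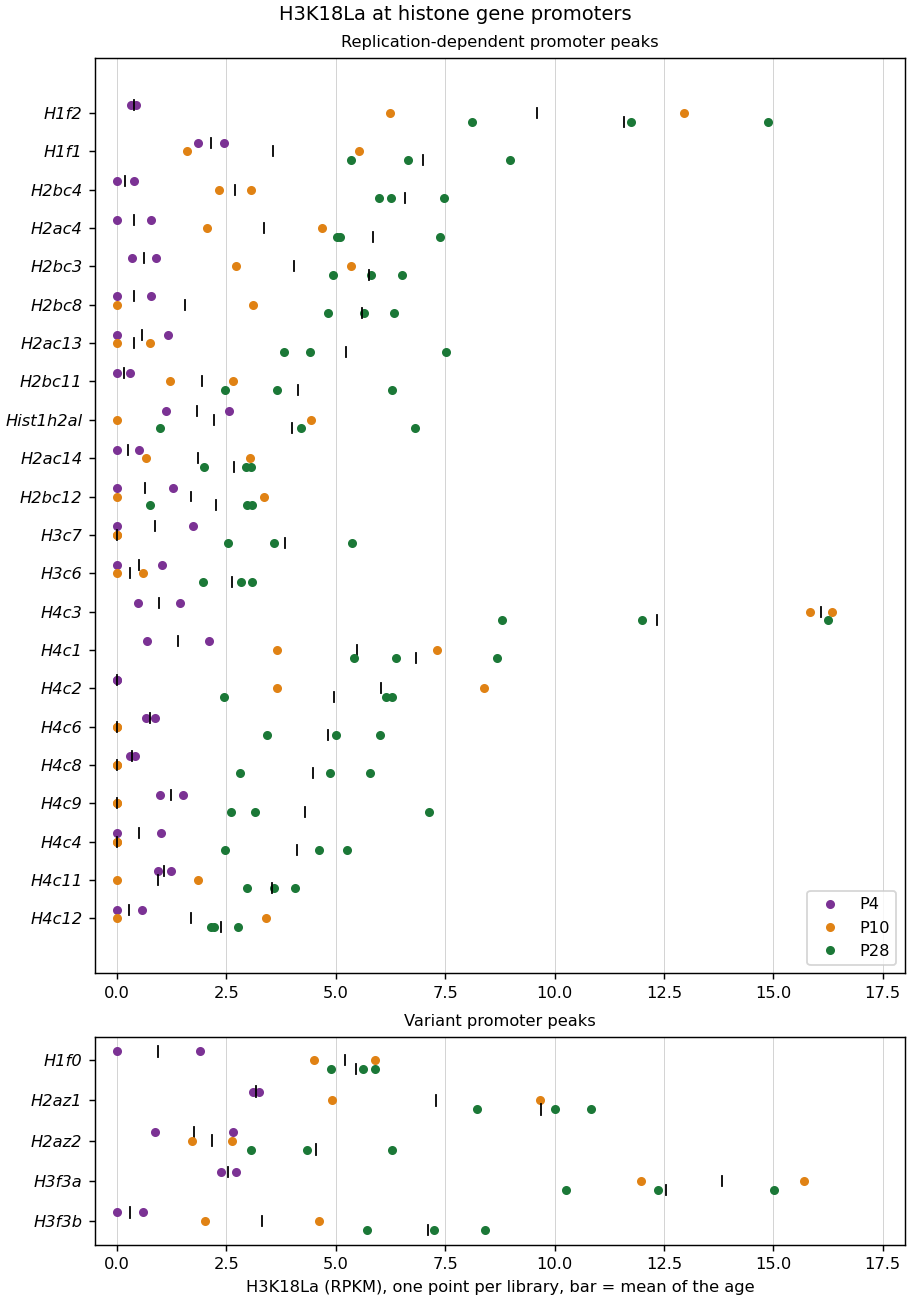
RPKM (horizontal axis) at the 22 replication-dependent and 5 variant promoter peaks (rows, ordered by family), with 1 point per library coloured by age and a bar at the mean of each age. P28 points lie to the right of P4 points in 20 of the 22 replication-dependent rows and in all 5 variant rows, and 5 replication-dependent rows have both P10 points at 0.

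The level reached at P28 was close to that of the median promoter. The mean P28 signal had a median of 4.65 RPKM over the 22 replication-dependent promoter peaks, with a range from 2.26 (H2bc12) to 12.3 (H4c3), and the median over all promoter peaks was 4.51. At P4 the corresponding medians were 0.543 and 1.6 RPKM. As a share of all reads in peaks, the replication-dependent promoter peaks took 0.00919% and 0.00914% in the P4 libraries, 0.0230% and 0.0132% in the P10 libraries, and 0.0231%, 0.0243% and 0.0281% in the P28 libraries. These peaks made up 0.0244% of the peak width. Every library but P28 replicate 3 had a smaller share of reads than that, and both P4 libraries and P10 replicate 2 fell furthest below it. The exact 95% intervals, which cover counting error only since reads were counted without molecular identifiers, were 0.00633% to 0.0129% and 0.00602% to 0.0133% at P4 and 0.0105% to 0.0162% in P10 replicate 2, and did not reach those of the P28 libraries, whose lowest bound was 0.0209%. The interval of P10 replicate 1, 0.0168% to 0.0307%, overlapped them. All promoter peaks together took 23.4% to 24.0% at P4 and 28.5% to 30.8% at P28.

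**Figure D3:**
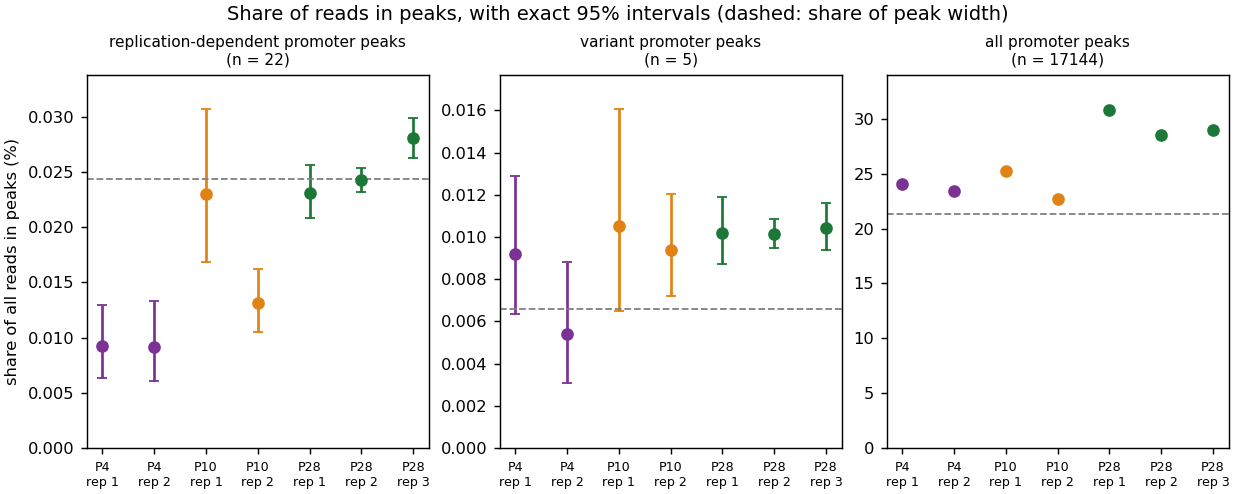
Percent of all reads in peaks (vertical axes) that fell in replication-dependent, variant and all promoter peaks in each library (horizontal axes, coloured by age), with exact 95% intervals. The dashed line is the percent of peak width: in the left panel every library but P28 replicate 3 lies below it. Both P4 libraries, near 0.009%, and P10 replicate 2, at 0.0132%, also lie below all P28 libraries.

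Among linker histones, H1f2, which encodes H1.2, showed the largest change in log2(RPKM + 1) from P4 to P28 of the replication-dependent promoters. Its peak (chr13:23738702-23740093) had 0.326 and 0.429 RPKM at P4, 13 and 6.23 RPKM at P10, and 8.10, 11.7 and 14.9 RPKM at P28. All later libraries lay above both P4 libraries, and P10 and P28 overlapped. The change in log2(RPKM + 1) was 3.16 ± 0.39 (SE) from P4 to P28 (limma adjusted p = 3.7e-04) and 2.87 ± 0.43 from P4 to P10 (adjusted p = 0.0016). The P4 libraries held 1 read each, so the pooled ratio of P28 to P4 was 32.1 with an exact 95% counting interval from 8.84 to 266. By that ratio H2bc4 was higher, at 38.2 (6.80 to 1515). Both calls were lost without either P4 library, at adjusted p-values up to 0.0114 and 0.0180. H1f1, which encodes H1.1, had 1.85 and 2.43 RPKM at P4, 5.52 and 1.61 RPKM at P10, and 5.35, 6.64 and 8.98 RPKM at P28. Its P4 and P28 libraries did not overlap, and the change was not called (1.33 ± 0.44, limma adjusted p = 0.036). H1f3, named after its values were seen, is annotated with a peak in a 5′ UTR that covers its start and was not called (1.76 ± 0.48, limma adjusted p = 0.016).

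The H2A and H2B promoters, 9 peaks in all, were called higher from P4 to P28 at 4: H2bc4, H2bc3, H2ac4 and H2bc11. Of all promoter peaks, 31.3% were called higher. These genes encode core histones of the replication-dependent set. H2bc4, which shares its peak with H2ac6 (chr13:23683084-23684633), had 0 and 0.385 RPKM at P4, 2.33 and 3.05 RPKM at P10, and 6.26, 5.99 and 7.47 RPKM at P28. The 3 ages did not overlap in any library. Its change from P4 to P28 was 2.68 ± 0.39 (limma adjusted p = 7.4e-04), and it was called in all 15 alternative fits. H2ac4 rose by 2.34 ± 0.45 (adjusted p = 0.0031), from 0 and 0.774 RPKM at P4 to 5.10, 5.02 and 7.39 RPKM at P28. H2bc3 rose by 2.07 ± 0.40 (adjusted p = 0.0031), from 0.343 and 0.900 RPKM to 4.95, 5.79 and 6.51 RPKM. H2bc11 rose by 2.10 ± 0.49 (adjusted p = 0.0078), from 0.306 and 0 RPKM to 2.48, 3.64 and 6.28 RPKM. For H2ac4, H2bc3 and H2bc11 the P4 and P28 libraries did not overlap, yet the call was lost without any 1 of the 5 P4 and P28 libraries, at adjusted p-values up to 0.0368, 0.0302 and 0.0671, and also when scaled to reads in peaks. H2bc8, shown above for its octamer, had a change of 2.30 ± 0.60 that missed the threshold (adjusted p = 0.013).

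The smallest changes among these genes were at H2bc12 (1.01 ± 0.69, adjusted p = 0.26) and Hist1h2al (0.65 ± 0.77, adjusted p = 0.51). Hist1h2al lies far from the clusters on chromosome 13 (chr13:51202874-51203406), and RefSeq lists a transcribed pseudogene, H2af-ps2, in its place. Its 3 P28 libraries, at 0.984, 6.80 and 4.21 RPKM, spanned the P4 values of 2.56 and 1.12 RPKM. The peaks at the H3 promoters H3c7 and H3c6 were not called. H3c6 had 1.02 and 0 RPKM at P4, 0 and 0.588 RPKM at P10, and 1.96, 2.84 and 3.09 RPKM at P28 (limma adjusted p = 0.036).

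The H4 promoters, 9 peaks, were called higher from P4 to P28 at 4: H4c3, H4c2, H4c8 and H4c1. Of all promoter peaks, 31.3% were called higher from P4 to P28 and 12.8% from P4 to P10. H4c3 (chr13:23698223-23699476) had the highest replication-dependent signal at P28 and lay at the 87.8th percentile of promoter peaks there. It had 1.45 and 0.476 RPKM at P4, 15.8 and 16.3 RPKM at P10, and 8.79, 12 and 16.3 RPKM at P28. The P10 libraries had thus reached the P28 range, and no later library overlapped P4. The change was 2.77 ± 0.35 from P4 to P28 (limma adjusted p = 4.2e-04) and 3.17 ± 0.39 from P4 to P10 (adjusted p = 8.0e-04), and both were called in all 15 alternative fits. H4c2 had no read at P4, 8.38 and 3.66 RPKM at P10, and 2.44, 6.28 and 6.15 RPKM at P28. Against 3 reads in each P4 library it was at least 2.03-fold higher at P28, and it was called from P4 to P28 (adjusted p = 0.0034) and from P4 to P10 (adjusted p = 0.0046). The P4 to P10 call was lost without either P4 library, without P28 replicate 2 or 3, and with a pseudocount of 4, at an adjusted p of up to 0.0377.

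H4c8 had no read at P10 at all. Its signal was 0.304 and 0.400 RPKM at P4 and 2.81, 4.86 and 5.78 RPKM at P28 (1.98 ± 0.43, adjusted p = 0.0053). H4c1, whose peak also covers the start of H3c1, had 2.10 and 0.691 RPKM at P4, 7.31 and 3.65 RPKM at P10, and 6.38, 5.41 and 8.70 RPKM at P28 (1.75 ± 0.42, adjusted p = 0.0091). The P4 to P28 calls of H4c2 and H4c8 were lost without either P4 library and without P28 replicate 2 or 3, and that of H4c1 without any P4 or P28 library, at adjusted p-values up to 0.0390, 0.0437 and 0.0873. All 3 were also lost when scaled to reads in peaks, and over all alternatives the adjusted p of H4c1 reached 0.299. H4c11 and H4c9 changed least among H4 genes, by 1.12 ± 0.52 (adjusted p = 0.10) and 1.15 ± 0.48 (adjusted p = 0.080), and their P4 and P28 libraries did not overlap.

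Between P4 and P10 few replication-dependent promoters passed the test. Of 22, 13 had a change above 0 and 9 a change below 0, with a median of 0.54, against 0.52 over all promoter peaks. The change over all promoter peaks was still below 0 at the 31.0th percentile and was 0 at the 31.5th. In the limma fit 3 were called higher (H4c3, H1f2 and H4c2) and 0 lower, where 12.8% of all promoter peaks were called higher and 1.86% lower. With the peak near H4c3 described below, 4 of 33 were called, where 11.4% of all peaks were called higher and 7.34% lower. Both P10 libraries lay above both P4 libraries at 9 of the 22 promoter peaks (44.9% of all promoter peaks) and at 11 of the 33 (36.1% of all peaks). They lay below both P4 libraries at H4c9, H4c8 and H4c6, which had no P10 read. Each P4 library held only 1 or 2 reads there, so such counts cannot show a lower level at P10. The share of all promoter peaks that lay below in this way was not taken. The count of 4 was 2 without either P4 library, where 2.59% and 2.94% of all peaks were called higher, and 7 without P10 replicate 1, where 16.2% were. Between P10 and P28 the median change was 0.91, or 0.58 with the 5 peaks that had no P10 read set to 3 reads per library, against 0.67 over all promoter peaks. None of the 33 peaks was called by limma in that comparison, where 0.00185% of all peaks were called higher, and the P28 libraries lay above both P10 libraries at 16 of the 33, against 32.2% of all peaks, and at 11 of the 22, against 49.1% of all promoter peaks. There were 15 of the 33 at an unadjusted p under 0.05, where 32.5% of all peaks were, and voom on the recovered reads called 2 higher, where it called 2.17% of all peaks higher and 6.09% lower. Without P10 replicate 2 limma called 9 higher, where 13% of all peaks were, and without P10 replicate 1 it called 1, where 0.648% were. These comparisons share libraries with each other and are given side by side.

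**Figure D4:**
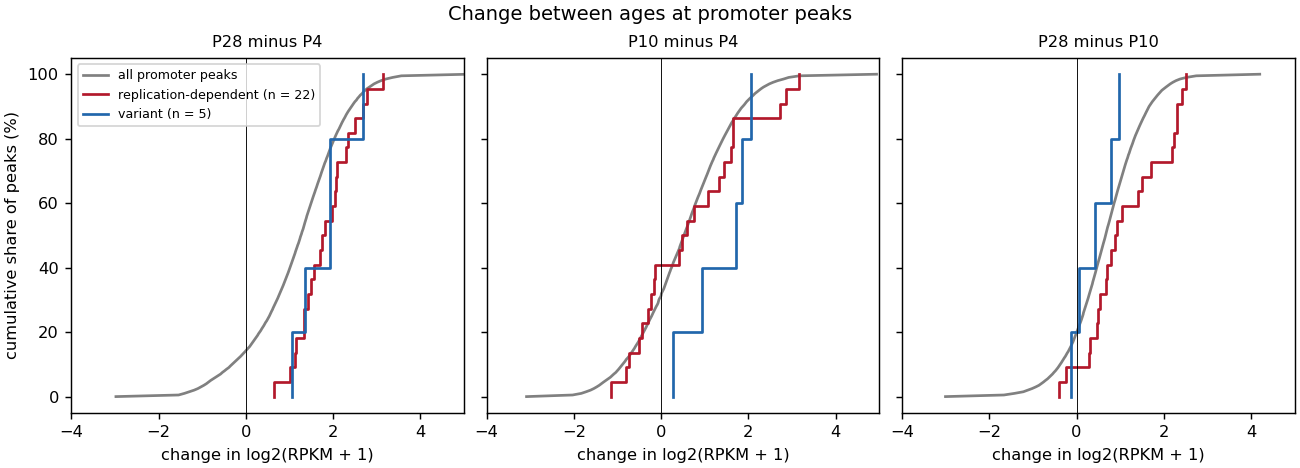
Cumulative percent of promoter peaks (vertical axis) by change in log2(RPKM + 1) (horizontal axis) for the 3 pairs of ages: all 17144 promoter peaks in grey, 22 replication-dependent in red and 5 variant in blue. From P4 to P28 no red or blue step lies below 0, and the grey line crosses 0 between 14.0% and 14.5%. From P4 to P10 the red and grey medians are close (0.54 and 0.52), but the lines differ on both sides of them.

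P10 reads were spread unevenly along the chromosome 13 cluster, and most stretches held peaks both with and without them. Peaks were split where more than 50 kb separated neighbours, a choice made after the values were seen, so no test is given. The stretch at chr13:23683084-23764370 (11 peaks; H2bc4, H4c3, H1f2, H2bc3, H2ac4, H4c2, H4c1 and H1f1) held 50 and 95 reads in the P10 libraries. The stretch at chr13:23530340-23620397 (11 peaks; H4c8, H3c7, H4c6, H1f3, H3c6, H2bc8, H4c4 and H2bc6) held 2 and 10. Per base of peak, the first stretch was 20.5 and 7.80 times the second in the P10 libraries (exact 95% counting intervals 5.39 to 174 and 4.06 to 16.8), 2.05, 1.86 and 1.98 times in the P28 libraries, and 1.85 and 1.53 times in the P4 libraries. These ratios describe stretches picked for their P10 reads.

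All 4 replication-dependent calls from P4 to P10, and 8 of the 13 from P4 to P28, came from the first stretch. In the second stretch 4 of 11 peaks had no P10 read, and its peaks had a median of -0.06 for P10 minus P4 and 1.76 for P28 minus P10, against 1.64 and 0.31 in the first. The stretches at chr13:21710024-21750865 (6 peaks) and chr13:22035016-22043744 (3 peaks) held 7 and 12 P10 reads in all, and 446 and 315 reads at P28.

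**Figure D5:**
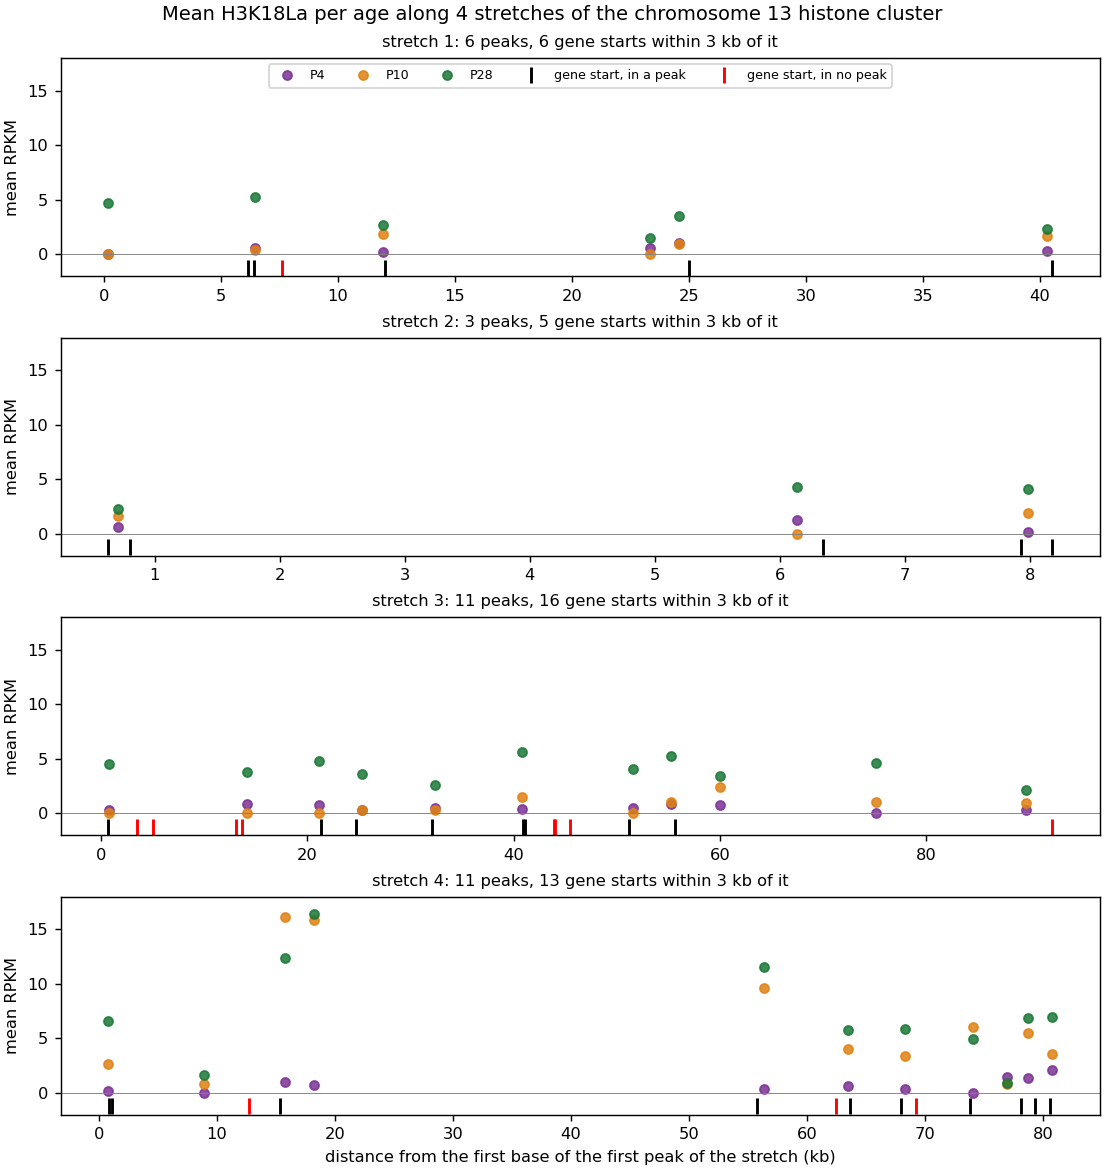
Mean RPKM per age (vertical axes, coloured points, 1 per peak) along 4 stretches of the chromosome 13 cluster (horizontal axes, kb from the first peak of each). Ticks mark gene starts in a peak (black) or in none (red); orange P10 points are near 0 over most of stretch 3 and close to the green P28 points over most of stretch 4.

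Outside promoters, the strongest signal of a replication-dependent gene was near H4c3 and H2bc1. The distal peak annotated to H4c3 (chr13:23700672-23701861), which lies 2214 bases from the start of H4c3 and 173 bases from Hfe, a regulator of iron uptake, had 1.53 and 0 RPKM at P4, 15.2 and 16.6 RPKM at P10, and 13, 16.3 and 19.7 RPKM at P28. It rose by 3.43 ± 0.40 from P4 to P28 (limma adjusted p = 3.0e-04) and by 3.41 ± 0.44 from P4 to P10 (adjusted p = 9.6e-04). The peak annotated to H2bc1 (chr13:23930676-23931790), 2366 bases from the start of that gene and 1647 bases from the nearer gene Gm33516, had 1.22 and 2.68 RPKM at P4, 4.86 and 24.0 RPKM at P10, and 23.8, 21.6 and 26.6 RPKM at P28. It rose by 3.12 ± 0.52 from P4 to P28 (adjusted p = 0.0015), while its P10 libraries, with 3 and 34 reads, disagreed. H2bc1 and its neighbour H2ac1, a pair known from the testis, had no peak at their starts. The peak annotated to H2bc13 (chr13:21710024-21710380) had no read at P4 or P10 and 4.41, 3.96 and 5.81 RPKM at P28, which was at least 1.07-fold above 3 reads in each P4 library. Both H4c3 calls held without any 1 library, and the one from P4 to P10 was lost with a pseudocount of 0.1 (adjusted p = 0.0128), whereas those of H2bc13 and H2bc1 were lost without either P4 library, and that of H2bc1 also without P28 replicate 1 or 3, at adjusted p-values up to 0.0152 and 0.0466. The H2bc1 call was also lost when scaled to reads in peaks.

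Of the 5 variant promoters, H3f3a, H3f3b and H1f0 were called higher from P4 to P28, and H2az1 and H2az2 were not. The median change of the 5 promoter peaks was 1.92 from P4 to P28, 1.71 from P4 to P10 and 0.42 from P10 to P28. In the limma fit 3 of 5 were called higher from P4 to P28 (31.3% of all promoter peaks), 1 of 5 from P4 to P10 (12.8%) and 0 of 5 from P10 to P28. Over all 16 variant peaks, 10 were called higher from P4 to P28 (18.9% of all peaks) and 6 from P4 to P10 (11.4%), and 0 were called from P10 to P28, where 4 had an unadjusted p under 0.05 (32.5% of all peaks) and voom called 1 higher and 1 lower (2.17% and 6.09% of all peaks). Many of these calls were neighbours at H3f3a. The count of 10 was 4 without P4 replicate 1, 5 without P4 replicate 2, 5 without P28 replicate 1 (batch 1 alone), 4 without P28 replicate 2 or 3, and 3 when scaled to reads in peaks. The shares of all peaks called higher in those fits are the ones given above for the replication-dependent genes, between 5.21% and 11.5%. The count of 6 was 3 without either P4 library, where 2.59% and 2.94% of all peaks were called higher. From P10 to P28, 1 was called higher without P10 replicate 1 (0.648% of all peaks), and 2 were called higher and 1 lower without P10 replicate 2 (13% and 2.27% of all peaks). As a share of reads in peaks, the 5 promoter peaks took 0.00919% and 0.00542% at P4, 0.0105% and 0.00938% at P10, and between 0.0102% and 0.0104% at P28. The exact interval of P4 replicate 1, 0.00633% to 0.0129%, overlapped those of every later library, while that of P4 replicate 2, 0.00310% to 0.00880%, lay below those of P28 replicates 2 and 3 and overlapped that of P28 replicate 1.

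H3f3a and H3f3b encode the same protein, histone H3.3, which is deposited outside replication. The promoter peak of H3f3a (chr1:180813271-180814777) was the highest of all histone promoters at P28, at the 88.2nd percentile of promoter peaks. It had 2.71 and 2.38 RPKM at P4, 12 and 15.7 RPKM at P10, and 10.3, 12.4 and 15.0 RPKM at P28. P10 and P28 overlapped, and both lay above P4. The change was 1.92 ± 0.29 from P4 to P28 (limma adjusted p = 9.8e-04) and 2.06 ± 0.32 from P4 to P10 (adjusted p = 0.0018). Both calls were lost without either P4 library, at adjusted p-values up to 0.0138 and 0.0153, and also when scaled to reads in peaks or with quantile normalization, at adjusted p-values up to 0.0435 and 0.0222. Scaled to reads in peaks, the change from P4 to P28 was 0.64. H3f3b (chr11:116024074-116024854) had 0.582 and 0 RPKM at P4, 4.62 and 2.02 RPKM at P10, and 5.71, 7.24 and 8.40 RPKM at P28. Unlike H3f3a, its P28 libraries all lay above its P10 libraries, and the difference between the genes was not tested. It rose by 2.68 ± 0.43 from P4 to P28 (adjusted p = 0.0013), a call that was lost without either P4 library, without P28 replicate 2 or 3, or scaled to reads in peaks, at an adjusted p of up to 0.0198.

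Around H3f3a, 4 distal peaks and 1 exon peak of the antisense gene H3f3aos were called from P4 to P28. The largest was a 2334-base peak (chr1:180792497-180794830) within the long noncoding RNA gene 2900024J01Rik, 18775 bases from the H3f3a start in RefSeq. It had 0.389 and 3.32 RPKM at P4, 30.2 and 43.6 RPKM at P10, and 21.0, 27.2 and 32.8 RPKM at P28. In every P10 and P28 library it held more than any histone promoter, and it rose by 3.49 ± 0.44 from P4 to P28 (limma adjusted p = 4.1e-04) and by 3.93 ± 0.49 from P4 to P10 (adjusted p = 8.3e-04). The nearby peak at chr1:180791754-180792058 and the one at chr1:180798723-180799466 rose by 2.27 ± 0.32 and 3.10 ± 0.37 from P4 to P28 (adjusted p = 6.7e-04 and 3.4e-04). These 3 calls held without any 1 library, but the one at chr1:180791754-180792058 was lost when scaled to reads in peaks or with quantile normalization, at a change of down to 0.96 and an adjusted p of up to 0.0639. The peak beyond the start, at chr1:180817760-180818253, rose by 2.05 ± 0.44 (adjusted p = 0.0052), a call that was lost in 9 of 15 alternative fits, those without any P4 or P28 library among them, at an adjusted p of up to 0.0632. The 4 distal peaks were also called from P4 to P10, and of these calls the one at chr1:180791754-180792058 was lost without P4 replicate 2 and the one at chr1:180817760-180818253 without either P4 library or P28 replicate 2, at adjusted p-values up to 0.0109 and 0.0319. The first was also lost when scaled to reads in peaks or with quantile normalization, at an adjusted p of up to 0.0739 and a change of down to 1.22, and the second when scaled to reads in peaks or with a pseudocount of 0.1.

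The exon peak of H3f3aos (chr1:180815760-180816069) was not resolved at P10. It had 0 and 1.92 RPKM at P4, no read at P10, and 9.31, 13.5 and 11.7 RPKM at P28, a rise of 2.86 ± 0.50 (limma adjusted p = 0.0019). At its width of 310 bases the P10 libraries, without a read, could hide a level of up to 3 reads. The call was lost without P4 replicate 1 or any P28 library, when scaled to reads in peaks and with a pseudocount of 0.1, at an adjusted p of up to 0.0325.

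H2az1 and H2az2 encode H2A.Z, a variant that sits beside active promoters. H2az1 (chr3:137863288-137864754) had 3.10 and 3.25 RPKM at P4, 4.92 and 9.67 RPKM at P10, and 8.23, 10.01 and 10.8 RPKM at P28. Its P28 libraries all lay above its P4 libraries, and its change of 1.35 ± 0.34 fell just short of the threshold (limma adjusted p = 0.011). H2az2 (chr11:6443500-6444874) had 2.64 and 0.868 RPKM at P4, 2.63 and 1.72 RPKM at P10, and 3.05, 4.34 and 6.28 RPKM at P28 (1.05 ± 0.45, adjusted p = 0.087). Scaled to reads in peaks, the change of H2az2 was -0.06. H1f0 encodes H1.0, the linker histone of cells that have stopped dividing. Its peak (chr15:79027778-79028980) had 1.89 and 0 RPKM at P4, 4.50 and 5.90 RPKM at P10, and 5.89, 5.62 and 4.88 RPKM at P28. P10 and P28 overlapped fully, and the rise of 1.92 ± 0.47 from P4 to P28 was called (adjusted p = 0.0095) but lost in 9 of 15 alternative fits, among them those without P4 replicate 2 or any P28 library, scaled to reads in peaks, with median centring and with quantile normalization, at an adjusted p of up to 0.176.

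The remaining variant symbols had no promoter peak. The distal peak of the pseudogene H1f11-ps and an intron peak of H2az2, both named after their values were seen, were called. H1f11-ps rose by 1.56 ± 0.37 from P4 to P28 (limma adjusted p = 0.0079) and by 1.97 ± 0.40 from P4 to P10 (adjusted p = 0.0052). The H2az2 intron peak (chr11:6434296-6435089) had no read at P4, 0 and 0.993 RPKM at P10, and 1.98, 3.02 and 3.92 RPKM at P28 (adjusted p = 0.0057 from P4 to P28). H1f8, the linker histone of the oocyte, had 2 peaks in its 3′ UTR whose P4 and P28 libraries overlapped (-0.32 ± 0.39 and -0.25 ± 0.49 from P4 to P28). A peak annotated to the pseudogene H3f3a-ps2 lies within the gene 4932438H23Rik and is named here after its values were seen. It had 0.831 and 3.27 RPKM at P4, 9.90 and 7.21 RPKM at P10, and 0, 0.337 and 0.316 RPKM at P28, so that both P10 libraries lay above all others. The change from P10 to P28 was -2.97 ± 0.49 and not called (limma adjusted p = 0.011).

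Genes that make or carry histones were examined beside them. Of 14 symbols for transcription and 3′ processing of histone mRNA (Ars2 and Srrt are names of 1 gene), 11 had a promoter peak, and 2 were called higher from P4 to P28, where 31.3% of all promoter peaks were: Npat, the coactivator of replication-dependent histone transcription, by 1.87 ± 0.38 (limma adjusted p = 0.0042), and Lsm10, a subunit of the U7 particle that cuts the mRNA, by 1.84 ± 0.45 (adjusted p = 0.0095). Slbp, the stem-loop binding protein, changed by 1.90 ± 0.65 and was not called (adjusted p = 0.039). The median of this list was 1.1, against 1.26 over all promoter peaks.

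Of 24 chaperone and deposition genes, 19 had a promoter peak and 7 were called higher from P4 to P28 (31.3% of all promoter peaks), with a median of 1.59 against 1.26 over all promoter peaks, so the share called was near the background. Anp32e, which removes H2A.Z, had 1.43 and 0.938 RPKM at P4, 4.26 and 6.20 RPKM at P10, and 10.1, 10.8 and 14.9 RPKM at P28 (2.56 ± 0.34, adjusted p = 4.8e-04). Ep400 and Srcap, remodelling enzymes that place H2A.Z, rose by 2.46 ± 0.40 and 1.72 ± 0.37. Daxx, a chaperone of H3.3, and Nap1l1, a chaperone of H2A and H2B, rose by 1.72 ± 0.30 and 1.59 ± 0.28, and Dek and Rbbp4, which bind chromatin and histones, by 1.94 ± 0.35 and 1.75 ± 0.38. From P4 to P10, Daxx (1.92 ± 0.33), Nap1l1 (1.65 ± 0.31) and Supt6, an elongation factor that binds histones (2.04 ± 0.48), were called, where 12.8% of all promoter peaks were. Of 9 histone genes outside the symbol rule, 7 had a promoter peak and 2 were called from P4 to P28, again near the background of 31.3%: Macroh2a1, by 2.04 ± 0.35, and H4f16, an H4 gene, by 2.14 ± 0.42.

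Since replication-dependent histone genes are tied to the cell cycle, cycling progenitor genes were set beside them. Of 14, 11 had a promoter peak, and their summed signal was 13.8 and 23.3 RPKM at P4, 19.9 and 32.6 RPKM at P10 and 53.4 to 66.1 RPKM at P28. In the limma fit 3 of the 11 (Pcna, Mcm2 and Hes5) were called higher from P4 to P28 and 0 lower, where 31.3% of all promoter peaks were called higher and 0.834% lower, and the median change was 0.96 against 1.26. H3K18La at a promoter is a mark and not RNA, and the part of dividing cells in the histone results was not tested. Depth and age went together, since the 3 P28 libraries were the deepest, and their parts cannot be told apart.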

How the data were processed

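CUT&Tag for H3K18La was analysed in 7 retinal libraries, grouped by age from the labels. RPKM values per consensus peak were used as the authors deposited them. Reads had been processed with nf-core/cutandrun against GRCm38, peaks called with MACS, counts normalised from large csaw windows, and peaks annotated with ChIPseeker 1.34.1. The deposited table of the authors' own edgeR 3.40.2 comparisons (fold changes and p-values) was not used. How reads mapping to several places were handled is not given in the sources used here. Whole reads were recovered for 100% of values (tolerance 0.01 of a read), giving 199970 to 8274373 reads in peaks per library, and were used for counting intervals (exact, 95%, Clopper-Pearson for shares), floors of 3 reads and the voom alternative.

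Values were tested as log2(RPKM + 1) with limma 3.58.1 in R 4.3.3 (moderated test with a trend, all 108253 peaks, 7 libraries in 1 fit, Benjamini-Hochberg adjustment, called at an adjusted p under 0.01), a fit tested on simulated data. Recovery in the simulated data was scored only for large changes at well-read P4 peaks, so it does not speak to peaks at the floor. With a pseudocount of 1, changes of low peaks are understated. The 3 pairs of ages share libraries. Gene starts, promoter windows and stem-loops came from RefSeq on GRCm38.p6, and copies from blastn 2.17.0. Named genes were every variant promoter peak; the 6 replication-dependent promoter peaks with the highest P28 signal, the 6 that rose most and the 6 that rose least from P4 to P28, and up to 12 called; up to 8 called peaks outside promoters; and up to 12 called genes of the histone supply lists. H1f3, H1f8, H1f11-ps, the H2az2 intron peak, H3f3a-ps2 and Slbp were added after their values were seen. Members and gene lists were chosen with earlier results of these data known. Alternatives were other pseudocounts, a filter on low values, other scalings, voom, a replicate block, a threshold of 0.05 and leaving out each library.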

Additional observations from a re-analysis of the deposited data

How the results depend on the processing

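The P10 and P4 libraries held few reads in single histone peaks, and with 2 libraries at each of those ages 1 library often decided a call. Scaling to reads in peaks also ended calls, and was the alternative under which results reversed among the named peaks. From P4 to P28 the median over all peaks was 0.68, and it was -0.29 when scaled to reads in peaks, 0.16 with median centring and 0.09 with quantile normalization. Peaks called higher and lower were 20488 and 4553 as reported, 7902 and 16845 scaled to reads in peaks, 14172 and 10724 with median centring, 13683 and 14636 with quantile normalization, and 32691 and 12254 with voom. The replication-dependent promoter median, given next, lay above that of all promoter peaks under each of these scalings (1.26 as reported, 0.22, 0.74 and 0.63 in the same order), while the changes of H2az2 and Hist1h2al became -0.062 and -0.46 when scaled to reads in peaks.

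Of the 33 replication-dependent peaks, 13 called from P4 to P28 became 8 with a pseudocount of 0.1, 5 scaled to reads in peaks, 23 with voom and 24 at an adjusted p under 0.05, and 3 to 23 when 1 library was left out. The promoter median of 1.78 became 3.27 and 0.91 with pseudocounts of 0.1 and 4, 2.06 among peaks with a mean of at least 2 RPKM (where that of all promoter peaks was 1.47, since a peak low at P4 passes this filter through its later levels), 1.06 scaled to reads in peaks, 1.26 with median centring and 1.44 with quantile normalization. From P4 to P10 the count of 4 became 8 with voom, 9 at 0.05 and 2 to 7 with 1 library left out, and the median of 0.54 became 0.96 with the filter, 0.040 scaled to reads in peaks and 0.30 to 1.01 with 1 library left out. From P10 to P28 the count of 0 became 1 with a pseudocount of 0.1, 2 with a pseudocount of 4, median centring or voom, 9 at 0.05, and 0 to 9 with 1 library left out, and the median of 0.91 became 1.92 and 0.51 with pseudocounts of 0.1 and 4. The medians of all promoter peaks moved as well. With those pseudocounts they were 1.82 and 0.66 from P4 to P28, and 0.99 and 0.36 from P10 to P28. From P4 to P10 they were 0.78 with the filter and -0.31 scaled to reads in peaks.

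Of the 16 variant peaks, 10 called from P4 to P28 became 5 with a pseudocount of 0.1, 3 scaled to reads in peaks, 6 with median centring or quantile normalization, and 4 to 11 with 1 library left out. The median of 1.92 became 0.96 with a pseudocount of 4, 0.64 scaled to reads in peaks, 1.40 with median centring, 0.91 with quantile normalization and 1.38 to 1.99 with 1 library left out. From P4 to P10 the count of 6 became 2 scaled to reads in peaks, 3 with quantile normalization, and 3 to 7 with 1 library left out, and the median of 1.71 became 2.39 and 0.75 with pseudocounts of 0.1 and 4, 0.95 scaled to reads in peaks, 1.11 with quantile normalization and 1.09 to 2.04 with 1 library left out. From P10 to P28 the count of 0 became 2 with a pseudocount of 4, median centring or voom, 3 at 0.05, and 0 to 3 with 1 library left out, and the median of 0.42 ran from -0.0054 to 0.52. Over all promoter peaks the median from P4 to P10 was 0.75 and 0.27 with pseudocounts of 0.1 and 4. It was -0.31 scaled to reads in peaks and 0.20 with quantile normalization. The causes were not tested. Of all peaks, the share called higher is the background for these counts: from P4 to P28 it was 12.8% with a pseudocount of 0.1, 7.30% scaled to reads in peaks, 13.1% with median centring, 12.6% with quantile normalization, 30.2% with voom and 32.6% at 0.05, from P4 to P10 it was 4.38% scaled to reads in peaks, 4.08% with quantile normalization, 14.5% with voom and 21.4% at 0.05, and from P10 to P28 it was 1.16% and 1.78% with pseudocounts of 0.1 and 4, 0.818% with median centring, 2.17% with voom and 10.1% at 0.05.

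Replicate numbers did not pair the libraries: deviations of same-numbered libraries correlated at 0.039 between P4 and P10 and at 0.047 and 0.023 between P10 and P28. With the replicate number as a block, 6 of 33 replication-dependent peaks and 6 of 16 variant peaks were called higher from P4 to P28, where 11.4% of all peaks were called higher and 2.70% lower.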
